A study of Mus musculus with 2 samples.

Results

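Maturing retinal ganglion cells are described here as they appear in single-cell RNA-seq of sorted cells from the peripheral retina of mouse embryos at E13.5. Cells were chosen by raw UMIs of marker genes: a barcode needed at least 10 UMIs of Sncg, which encodes gamma-synuclein, and at least 5 of Nefl, which encodes the neurofilament light chain. Barcodes with any UMI of Ptf1a, an amacrine and horizontal cell factor, or with more than 2 UMIs of the collagen genes Col3a1 and Col1a2 together were left out. A UMI (unique molecular identifier) stands for 1 captured transcript. Of 9395 kept barcodes (500 or more genes, mitochondrial share up to 10%), 942 passed, 562 in the albino library and 380 in the pigmented library.

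Retinal ganglion cells are the projection neurons of the eye: their axons run in the optic nerve to the brain, and in the mouse most cross the midline at the chiasm. They are the earliest retinal neurons to be born. Progenitors that leave the cell cycle switch on the bHLH factor Atoh7, then the POU factor Pou4f2 and the LIM factor Isl1, and the young neuron then builds an axon, which calls for neurofilaments, growth-cone proteins and guidance receptors. Albino eyes, which lack melanin, are known for a smaller uncrossed ganglion cell projection.

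The series compares sorted TdTomato-positive cells of α-Cre;TdTomato embryos on an albino and on a pigmented background, with 1 library of 3 pooled embryos for each. The α-Cre transgene is driven by a Pax6 enhancer that is active in the peripheral retina, so the central retina, where ganglion cells start to form, is largely outside the sort. All embryos carried Cre and the reporter, and tissue was dissociated with papain before droplet capture with a 3' kit, per the labels. Under strain, the albino sample is labelled Swizz ICR and the pigmented sample Tyrc2j. Tyrc2j is itself an albino allele of tyrosinase, so that label conflicts with the sample's own title. The groups follow the titles, and pigmentation, strain, litter, sex mix and library cannot be told apart.

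With 1 library per group there was no replicate and no test of the condition, and every interval given is a 95% interval that covers counting error only. The matrices held 46271969 UMIs in 3676 albino barcodes and 69965728 UMIs in 6089 pigmented barcodes. Maturing ganglion cells were the deeper cells of both libraries, with a median of 15733 UMIs in albino cells, ranging from 1874 to 208279, and 16077 UMIs in pigmented cells, ranging from 2675 to 86796. The libraries share 8 barcodes, 2 of them among the maturing ganglion cells. Of the maturing ganglion cells, 98.9% of albino cells had Xist and no Y-linked UMI, against 33.4% of pigmented cells, and 43.7% of pigmented cells had Y-linked UMIs without Xist, so the sexes were unequally mixed. In the albino library 23 of the 562 cells had more than 30000 UMIs and less than 0.5% mitochondrial UMIs, with a median of 80475 UMIs, and no pigmented maturing ganglion cell was of that kind. These very deep barcodes held 16.7% of all albino maturing ganglion cell UMIs and carried mixed RNA. Their summed UMIs gave 1296 CPM (UMIs of a gene in 1000000 UMIs of the cells) for Sncg, but also 819 for the progenitor gene Sfrp2, 714 for the mitotic gene Ube2c and 170 for the epithelial keratin gene Krt15. For results that they moved most, values are given with and without them.

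The label was checked with Gap43 and Nrn1, marker genes that the selection did not use. Gap43, which encodes a growth-cone protein (ENSMUSG00000047261, chr16:42248442-42340651, minus strand, GRCm38), averaged 2249 CPM in albino maturing ganglion cells and 2623 in pigmented ones. In Ccnd1 cells, which are barcodes with at least 10 UMIs of the progenitor cyclin Ccnd1 and none of Atoh7 or Pou4f2, Gap43 stood at 17.1 in albino cells and 22.8 in pigmented cells. Nrn1, which encodes the neurite-promoting protein neuritin (chr13:36725361-36735131, minus strand), stood at 161 in albino and 188 in pigmented maturing ganglion cells. Its exons overlap Fars2 on the opposite strand, and the sources used here do not say whether counting used strand. After every cell had been thinned to 11200 UMIs, 100% of the maturing ganglion cells of both libraries had Gap43, and 57.5% of albino and 60.2% of pigmented cells had Nrn1, against 63.5% and 63.9% unthinned. In thinned Ccnd1 cells, where a UMI of these genes may be free RNA of the suspension, 15.5% of albino and 20.6% of pigmented cells had Gap43, and 0.324% and 0.173% had Nrn1. Before thinning, the Ccnd1 cells had medians of 11369 albino and 10761 pigmented UMIs. Both markers were therefore far above the level in Ccnd1 cells, which should lack them. Since Ccnd1 cells were themselves limited in Sncg, a selecting gene, the check was not fully independent of the selection.

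The selection set the Sncg and Nefl values, which are given only as description. Sncg ran from 10 to 267 UMIs per albino cell with a median of 51, and from 10 to 169 per pigmented cell with a median of 55. Nefl ran from 5 to 171 with a median of 35 in albino cells, and from 5 to 133 with a median of 36 in pigmented cells. The 31 albino and 24 pigmented cells just inside the limits (10 or 11 UMIs of Sncg, or 5 of Nefl) had Atoh7 at 1521 and 1645 CPM and Gap43 at 1125 and 1284. The 20 albino and 21 pigmented cells just outside (8 or 9 UMIs of Sncg, or 4 of Nefl, with the other gene over its minimum) had Atoh7 at 1821 and 1811 and Gap43 at 1317 and 1371. The limits therefore cut through cells of like content rather than through a gap. Cells over both minimums that were dropped for Ptf1a numbered 15 albino and 8 pigmented, and 9 and 5 were dropped for collagen.

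Maturing ganglion cells made up a larger share of the albino library. They were 562 of 3512 albino barcodes, or 16.0% (14.8 to 17.3), and 380 of 5883 pigmented barcodes, or 6.46% (5.84 to 7.12). The ratio was 2.48 (2.17 to 2.83), and it was 2.40 (2.1 to 2.74) without the very deep barcodes. The ratio was nearer 1 for the younger ganglion cells. Barcodes with at least 3 UMIs of Pou4f2 that stayed below the Sncg or Nefl minimum, called Pou4f2 cells here, made up 7.60% of albino barcodes (6.75 to 8.53) and 6.73% of pigmented barcodes (6.1 to 7.4), a ratio of 1.13 (0.963 to 1.32). Ccnd1 cells were 17.3% of albino and 21.6% of pigmented barcodes, a ratio of 0.802 (0.727 to 0.884). Set against the Pou4f2 cells alone, maturing ganglion cells were 67.8% of the summed classes in the albino library (64.5 to 71.0) and 49.0% in the pigmented library (45.4 to 52.5), a ratio of 1.38 (1.21 to 1.58). Among barcodes with Xist and no Y-linked UMI the shares were 16.5% and 7.44%, a ratio of 2.21. Both the sort and the number of barcodes kept per library bear on such shares, and their part was not tested.

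**Figure D1:**
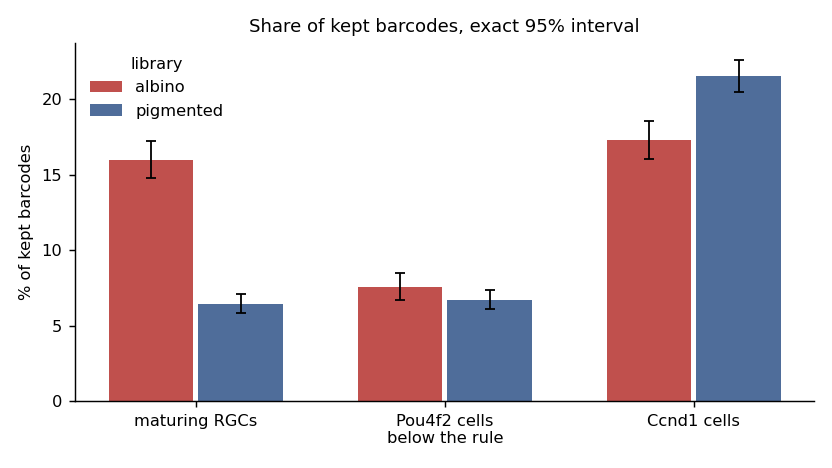
Share of kept barcodes in 3 classes, maturing retinal ganglion cells, Pou4f2 cells below the Sncg or Nefl minimum, and Ccnd1 cells. The vertical axis is percent of kept barcodes, albino bars stand left of pigmented bars, and lines are exact 95% binomial intervals for counting error in 1 library per group. The albino bar is the taller of its pair for maturing ganglion cells (16.0% against 6.46%) and the shorter for Ccnd1 cells (17.3% against 21.6%).

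The nearest class in the data is the 663 Pou4f2 cells, 267 albino and 396 pigmented, so genes were compared between maturing ganglion cells and these cells within each library. The selection divides ganglion cells by Sncg and Nefl, so ratios of other genes describe that division. Only the Pou4f2 cells had to hold at least 3 UMIs of Pou4f2. Genes that go with Pou4f2 may therefore stand higher in them by selection, which was not tested. The Pou4f2 cells were also shallower, with medians of 11999 albino and 11511 pigmented UMIs, and a fixed UMI minimum is easier to reach in a deep cell. Of 9755 genes with at least 50 UMIs, 476 (4.88%) were at least 2-fold higher in maturing ganglion cells in both libraries and 264 (2.71%) were at least 2-fold lower. Gap43 was 4.28-fold higher in albino cells (4.09 to 4.49) and 4.76-fold higher in pigmented cells (4.57 to 4.96). The genes with the highest ratios included neuropeptide, transmitter and calcium-binding genes that the Pou4f2 cells hardly contained.

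Sst, which encodes the peptide somatostatin (chr16:23889573-23890958, minus strand), stood at 483 CPM in albino maturing ganglion cells and 438 in pigmented ones, against 5.71 and 9.26 in the Pou4f2 cells. The ratios were 84.6 (55.3 to 137) in the albino library and 47.3 (35.3 to 65.0) in the pigmented library. Cda, the gene of cytidine deaminase (chr4:138338424-138367992, minus strand), had 152 albino and 169 pigmented CPM, against 2.18 and 1.85, ratios of 70.0 (35.4 to 162) and 91.3 (47.9 to 200). Both genes were near absent from the cells below the Sncg or Nefl minimum. Slc17a6 encodes VGLUT2, the transporter that loads glutamate into ganglion cell vesicles. It had 29.4 albino and 36.8 pigmented CPM, while the Pou4f2 cells of each library held 1 UMI in all, so the ratios of 108 (19.3 to 4284) and 179 (31.8 to 7093) are known only loosely.

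Calb2, the gene of the calcium-binding protein calretinin, stood at 176 in albino and 207 in pigmented maturing ganglion cells, against 3.81 and 4.32 in Pou4f2 cells, and Syt4, a synaptotagmin gene, at 77.1 and 75.0 against 1.90 and 1.44. Nrn1 was 29.7-fold higher in albino cells (19.2 to 48.7) and 38.0-fold higher in pigmented cells (25.4 to 59.6). Some genes had no UMI at all in the Pou4f2 cells. Mstn, which encodes the growth factor myostatin, stood at 16.7 and 22.1 in maturing ganglion cells and was at least 20.5-fold higher in the albino and 35.7-fold higher in the pigmented library, where the bound takes 3 UMIs as the floor of the whole class. The other genes in the top 15 were Vstm2l, Gfra2, Nrp1, Pnoc, Ly6h, Eef1a2, Ret and Irx5. Gfra2 and Ret encode a receptor pair for GDNF-family ligands and Pnoc encodes the opioid-like peptide precursor prepronociceptin.

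Promoters are shown for 3 genes that were among the highest or lowest against Pou4f2 cells and had a motif, Sst and Slc17a6 on the high side and Atoh7, the founding factor of ganglion cells, on the low side; they were chosen after their values were seen, and Nckap5 and Sp8, which ranked lower than Atoh7, also had motifs. The sequences are the bases before a RefSeq transcript start, from RefSeq on GRCm38.p6, written 5′ to 3′ on the gene's strand, and capitals mark the motif found. Sst is chr16:23890845-23891094 on the minus strand with a cyclic AMP response element, TGACGTCA, 48 bases before the start. Slc17a6 is chr7:51624387-51624636 on the plus strand, 1 of 2 promoters listed for the gene, with the homeodomain core TAATTA 81 bases before the start. Atoh7 is chr10:63099535-63099784 on the plus strand with a TATA box, TATAAA, 30 bases before the start.
Sst: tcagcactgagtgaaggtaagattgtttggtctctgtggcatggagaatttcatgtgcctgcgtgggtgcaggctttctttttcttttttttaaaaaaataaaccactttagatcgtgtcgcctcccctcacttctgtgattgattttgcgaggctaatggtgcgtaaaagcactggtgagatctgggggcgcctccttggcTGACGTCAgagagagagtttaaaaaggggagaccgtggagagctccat
Slc17a6: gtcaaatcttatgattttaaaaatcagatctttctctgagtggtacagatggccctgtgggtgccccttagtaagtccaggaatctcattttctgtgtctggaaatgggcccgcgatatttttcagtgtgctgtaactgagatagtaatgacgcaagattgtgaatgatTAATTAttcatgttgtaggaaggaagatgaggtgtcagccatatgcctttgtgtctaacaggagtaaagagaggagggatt
Atoh7: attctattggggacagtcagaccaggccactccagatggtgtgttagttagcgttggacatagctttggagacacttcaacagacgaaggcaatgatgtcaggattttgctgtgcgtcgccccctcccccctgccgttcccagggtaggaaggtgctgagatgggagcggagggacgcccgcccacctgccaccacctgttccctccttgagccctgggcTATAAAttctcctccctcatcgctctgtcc
Motifs were searched on both strands, and a match is a description of letters. TGACGTCA occurs in 1.55%, TAATTA in 4.84% and TATAAA in 12.4% of all 32851 promoters of the same length. Of the 27 genes that had the highest ratios or were markers, 13 had a RefSeq promoter entry, 20 promoters in all. TAATTA was in 2 of these promoters, CAGCTG, an E-box, in 2 (13.0% of all promoters), TATAAA in 2, TGACGTCA in 1, ATCGAT, an Onecut motif, in 1 (0.728% of all), and the EBF palindrome in 0 (0.779% of all).

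Among 26 ganglion cell transcription factors, 8 were at least 2-fold higher and 4 at least 2-fold lower in both libraries, with medians on the log2 scale of −0.02 in albino and 0.27 in pigmented cells, against −0.13 and −0.11 over all genes. The Iroquois factors were on the high side. Irx5 had 136 albino and 154 pigmented CPM, against 7.34 and 2.68 in Pou4f2 cells, ratios of 18.6 (12.7 to 28.3) and 57.5 (33.5 to 108). Irx3, which lies on the same chromosome (chr8:91798525-91802067 for Irx3, chr8:92357625-92376286 for Irx5) and shares exonic bases with Irx3os, had 119 and 128, against 7.88 and 8.85. Irx2, which lies on chromosome 13, was slightly lower, with 127 and 154 against 151 and 196. The Iroquois genes thus differed among themselves.

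Of the POU factors, Pou4f1 stood at 69.4 in albino and 94.0 in pigmented maturing ganglion cells, against 23.1 and 21.6, ratios of 3.00 (2.40 to 3.80) and 4.35 (3.53 to 5.40). Pou4f3 stood at 6.51 and 10.3 with no UMI in the Pou4f2 cells, at least 7.98-fold and 16.8-fold higher. Myt1l, a zinc-finger factor of postmitotic neurons, had 50.8 and 70.7 against 3.81 and 2.47. Ebf1, a helix-loop-helix factor of ganglion cells, was already high in Pou4f2 cells, at 1599 and 1772 in maturing ganglion cells against 1045 and 1118. Isl1 was lower in maturing ganglion cells, 785 and 883 against 1169 and 1269, ratios of 0.671 (0.647 to 0.697) and 0.696 (0.671 to 0.721).

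The factors of the earlier step were lower. Atoh7 had 609 CPM in albino and 659 in pigmented maturing ganglion cells, against 3600 and 3715 in Pou4f2 cells, ratios of 0.169 (0.164 to 0.174) and 0.177 (0.172 to 0.183). Dlx1 and Dlx2, homeobox genes that act in ganglion cell genesis, had 19.5 and 18.2 and then 16.9 and 14.9, against 135 and 170 and then 122 and 142. Of 17 genes of the neurogenic transition, 11 were at least 2-fold lower in both libraries and 0 higher, with medians of −1.46 and −1.64. They included Gadd45a, a growth-arrest gene, at 129 in both libraries against 782 and 833, and Mfng, a Notch-modifying glycosyltransferase gene, at 45.2 and 52.2 against 170 and 192. The other genes among the 10 lowest were Nckap5, Sp8, Insm2, Btbd17, Rgs16 and Bhlhe22. Of 18 progenitor genes 2 were at least 2-fold lower, and of 18 genes of the G2/M phase 0 were past 2-fold in both libraries in either direction.

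Genes for subtypes and laterality were split. Of 13 measured, 4 were at least 2-fold higher and 2 lower. Zic2, the factor of the ipsilateral projection, had 11.7 in albino and 15.1 in pigmented maturing ganglion cells, against 32.9 and 34 in Pou4f2 cells. At 11200 UMIs, 12.8% of albino and 13.4% of pigmented maturing ganglion cells had Zic2, against 37.9% and 40.5% of Ccnd1 cells, so Zic2 did not set these cells apart. Irx4 and Irx6, other Iroquois genes of ganglion cells, stood at 7.26 and 7.45 and at 21.7 and 20.1, against 0 in both libraries for Irx4 and 3.81 and 3.29 for Irx6.

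Growth-cone and axon genes were on the high side. Of 32 axon cytoskeleton genes, 11 were at least 2-fold higher in both libraries and 0 lower, with medians of 0.77 and 0.88. Stmn3, a stathmin gene of neurites, had 1703 in albino and 1825 in pigmented maturing ganglion cells, against 395 and 437, and Mapt, the tau gene, 311 and 378 against 37.0 and 40.3. Tubb3, the class III beta-tubulin of young neurons, hardly differed, with 3462 and 3672 against 3343 and 3444. The difference was thus uneven within the list. Of 35 guidance and adhesion genes 14 were higher and 6 lower. Nrp1, a semaphorin and VEGF receptor gene whose exons overlap Mir1903, had 75.6 and 75.3 against 2.99 and 2.26, and Cxcr4, a chemokine receptor gene, 61.8 and 71.5 against 3.26 and 2.88. L1cam, an axonal adhesion gene, had 78.8 and 94.7 against 20.1 and 22.8.

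Some guidance receptors went the opposite way. Dcc, the netrin receptor gene by which ganglion cell axons leave the eye, had 112 and 119 in maturing ganglion cells against 341 and 346, ratios of 0.329 (0.304 to 0.357) and 0.344 (0.316 to 0.375). Alcam had 8.46 and 7.30 against 41.9 and 48.4, and the Eph receptor gene Epha3 0.930 and 1.82 against 14.1 and 16.3. Shh, the sonic hedgehog gene that ganglion cells signal to progenitors with, stood at 4.93 and 8.21 against 0 UMIs in the Pou4f2 cells of both libraries, at least 6.04-fold and 13.3-fold higher. At 11200 UMIs it was seen in 5.93% of albino and 9.38% of pigmented maturing ganglion cells and in no Ccnd1 cell of either library.

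Of 26 synaptic vesicle genes 8 were higher and 0 lower, and of 20 channel genes 10 were higher and 0 lower, with medians of 0.98 and 1.29 for the channels. Snap25, a SNARE gene, had 83.8 in albino and 102 in pigmented maturing ganglion cells, against 20.1 and 28.4. Scn3a and Scn3b, sodium channel subunit genes, had 80.3 and 92.3 and then 18 and 20.4, against 32.1 and 26.5 and then 1.90 and 1.65. Not all members of these lists were higher: Chrna3, a nicotinic receptor gene, had 99.3 and 117 against 168 and 171, and Cplx2, a complexin gene, 52.5 and 59.6 against 63.9 and 68.5.

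Of 19 neurotrophic and survival genes 3 were at least 2-fold higher and 0 lower. Ret had 42.1 and 38.9 against 1.09 and 1.44, while the cell-death gene Bax had 386 and 371 against 393 and 384. Among 19 RNA-binding protein genes 3 were higher and 1 lower. Rbpms, a widely used ganglion cell marker, had 230 and 254 against 44.6 and 40.3, and Elavl3, a Hu protein gene, had 400 and 445 against 601 and 701. Of 16 glycolysis genes 2 were higher and 2 lower. Pfkp, a phosphofructokinase gene, had 61.4 and 74.4 against 7.34 and 8.85, and Slc2a1, the glucose transporter gene GLUT1, 30.0 and 29.2 against 68.8 and 77.4. Immediate early genes were near the level of the Pou4f2 cells, with 1 higher and 1 lower of 11.

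**Figure D2:**
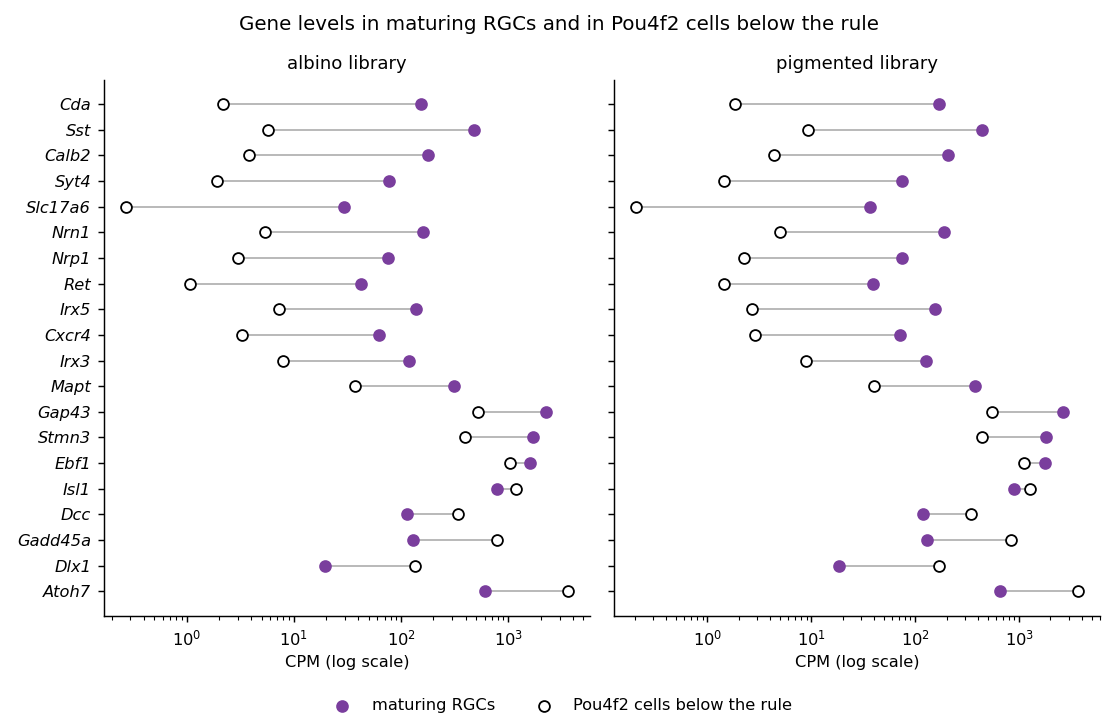
Levels of 20 genes in maturing retinal ganglion cells (filled points) and in Pou4f2 cells below the Sncg or Nefl minimum (open points), in CPM on a log axis, with the albino panel left of the pigmented panel and 1 library per panel. Most of the genes drawn come from the extremes of the comparison and a few, such as Isl1 and Dcc, were picked after their values were seen. Slc17a6, Cda and Sst are among the genes with the filled point far higher (108, 70.0 and 84.6-fold in the albino panel), and Atoh7, Dlx1 and Gadd45a have the open point higher in both panels.

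Against all 8453 other kept barcodes, 1171 of 12924 genes (9.06%) were at least 2-fold higher in maturing ganglion cells in both libraries and 2444 (18.9%) at least 2-fold lower. Axon cytoskeleton genes were higher in 29 of 33 cases and synaptic vesicle genes in 23 of 27. G2/M genes were lower in 18 of 18 cases, S phase genes in 17 of 18 and progenitor genes in 17 of 20. Of genes that were among the 15 highest here but not against the Pou4f2 cells, Scn9a, a sodium channel gene, had 39.6 in albino and 48.2 in pigmented maturing ganglion cells against 1.56 and 1.44 in the other cells. Rph3a, the gene of the vesicle protein rabphilin, had 15.3 and 20.8 against 0.481 and 0.349, and Gpr22, an orphan receptor gene, 8.19 and 7.60 against 0.0849 and 0.159. Pou4f3, Myt1l, Mapt, Ppp1r1c, Smim18 and Ppp2r2c were the others. The protein phosphatase regulator genes had 12.8 and 14.8 (Ppp1r1c) and 31.1 and 39.1 (Ppp2r2c).

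Marker RNA of other cell types was present in maturing ganglion cells in differing amounts. The summed level of the progenitor markers was 2870 CPM in albino and 2793 in pigmented maturing ganglion cells, against 6950 and 7288 in the other cells and 3004 and 2950 in the Pou4f2 cells. Photoreceptor markers summed to 92.6 and 125, against 370 and 407 in the other cells. Mesenchyme markers summed to 12.7 and 1.37, blood and endothelial markers to 17.0 and 6.08, and pigment cell markers to 10.8 and 1.67. Without the 23 very deep barcodes these albino sums were 3.57, 6.25 and 2.23, so most of the albino excess lay in those barcodes. In the other cells the sums were 176 and 179 for mesenchyme, 103 and 135 for blood and endothelium, and 113 and 69.3 for pigment cells. Amacrine and horizontal markers were not lower, with 485 and 548 against 385 and 361; Onecut2, which ganglion cells also use, supplied 344 and 386 of these sums. The selection kept Ptf1a at 0 and the collagen genes Col3a1 and Col1a2 low, so the low mesenchyme sum follows in part from it.

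Within the maturing ganglion cells, a few genes varied from cell to cell far more than the rest. Over 5341 genes at 11200 UMIs per cell, the median Fano factor, the variance over the mean of UMIs per cell, was 1.03, close to the counting value. It was taken over 506 albino and 352 pigmented cells deep enough to thin, with 56 and 28 left out. Crabp1, which encodes a cellular retinoic acid binding protein, had the highest, 132 in albino and 126 in pigmented cells. It ran from 0 to 408 UMIs per albino cell with a median of 10, and from 0 to 364 with a median of 14 in pigmented cells, and 21.3% and 19.6% of cells had none. Sst had 24.8 and 19.8, with no UMI in 48.0% of albino and 53.4% of pigmented cells and a highest value of 91 and 71. Gal, the galanin peptide gene, whose level of 354 in albino and 328 in pigmented maturing ganglion cells lay under the 670 and 782 of Pou4f2 cells, had a Fano factor of 11.2 and 13.4, with 45.7% and 47.7% at 0 and a highest value of 51 and 72. Medians were 1 and 0 UMIs for Sst and 1 and 1 for Gal, with 90th percentiles of 18.5 and 16 and of 12 and 12.9. High counts of these peptide genes were thus held by a minority of maturing ganglion cells, while many cells had none. Atoh7, with Fano factors of 14.4 and 19.8, still reached 99 and 98 UMIs in single cells.

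Several genes that mark adult ganglion cell subtypes were at or near 0 in the maturing ganglion cells. At 11200 UMIs, Eomes and Tbr1, T-box factors of adult subtypes, were each seen in 0 albino cells and 0.284% of pigmented cells, and Opn4, the melanopsin gene, in 0.198% of albino cells and no pigmented cell. A count of 0, taken as up to 3 cells, allows a UMI in up to 0.593% of albino and 0.852% of pigmented cells, which does not limit the share of cells that express the gene. Foxp2 was seen in 4.35% and 3.69%, against 23.3% and 23.5% of Ccnd1 cells. Pou4f1 was seen in 47.2% of albino and 51.7% of pigmented maturing ganglion cells and in 1.94% and 0.519% of Ccnd1 cells. Pou4f2 was seen in 64.4% and 63.1%, Pou4f3 in 3.36% and 5.68%, and Isl1 in 97.6% and 99.4%. Slc17a6 was seen in 26.7% and 32.7% of maturing ganglion cells, and Slc17a7, the VGLUT1 gene, in none of them.

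Maturing ganglion cells with low and with high Gap43 differed in content, and whether this ranking follows the age of the cells was not tested. Cells were ranked by Gap43 per UMI within each library and cut into 3 equal bins of 188, 187 and 187 albino cells and 127, 127 and 126 pigmented cells. Gap43 itself, which set the bins, stood at 970, 2476 and 3745 CPM over the albino bins and 1294, 2626 and 4016 over the pigmented bins, and median depth at 14823, 15527 and 16426 and at 13951, 15967 and 17455 UMIs. Of 7396 other genes, 315 (4.26%) were at least 2-fold higher in the highest bin than in the lowest in both libraries, and 212 (2.87%) at least 2-fold lower. Without the very deep barcodes these were 226 and 162 of 7339. The median of all genes in the albino library, highest over lowest bin on the log2 scale, moved to 0.00 without them, against 0.23 with them.

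Syt4 stood at 11.2, 73.7 and 169 over the albino bins and at 11.7, 71.3 and 145 over the pigmented bins, ratios of 15 (11.2 to 20.6) and 12.4 (8.37 to 19.1). Nrn1 followed with 36.9, 173 and 317, and with 50.6, 195 and 325. Irx3 had 27.9, 94.6 and 264, and 13.8, 105 and 268, and Irx5 had 34.1, 143 and 267, and 46.7, 134 and 285. These genes climbed through both steps. Sst had 183, 602 and 769 over the albino bins and 94.7, 513 and 729 over the pigmented bins, so most of its gain lay between the low and the middle bin. Cnr1, the cannabinoid receptor gene, which was chosen after its values were seen, had 17.9, 88.1 and 172, and 26.4, 114 and 185.

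Other genes moved down or changed less as Gap43 increased. Atoh7 had 1156, 381 and 95 over the albino bins and 1452, 385 and 83.6 over the pigmented bins. Mfng had 79.2, 34.6 and 9.81, and 106, 39.8 and 7.27, and Dcc 147, 129 and 49.6, and 208, 111 and 32.7. Atoh7, Mfng and Dcc, which were lower in maturing ganglion cells than in Pou4f2 cells, thus also declined among the maturing cells. Isl1 changed less than those genes, with 713, 935 and 738 over the albino bins and 976, 964 and 709 over the pigmented bins. Its ratio of highest over lowest bin was 1.03 in albino cells, 0.667 without the very deep barcodes, and 0.726 in pigmented cells.

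By list, 7 of 25 ganglion cell transcription factors, 9 of 33 axon cytoskeleton genes, 7 of 26 guidance genes, 7 of 22 synaptic genes and 8 of 18 channel genes were at least 2-fold higher in the highest Gap43 bin of both libraries. The counts were 5, 7, 7 of 25, 6 and 5 when the very deep barcodes were left out. At least 2-fold lower were 3 transcription factors, 2 guidance genes and 0 of the cytoskeleton, synaptic and channel genes. Without the very deep barcodes, 3 transcription factors, 1 guidance gene and 1 channel gene were lower. The cytoskeleton list includes Sncg and Nefl, which the selection used, so its counts rest in part on selecting genes. Of 16 progenitor genes 11, of 11 neurogenic genes 8 and of 13 G2/M genes 13 were at least 2-fold lower. Without the very deep barcodes these were 10 of 15, 7 of 10 and 5 of 7. Among the neurogenic genes 2 were at least 2-fold higher, and 1 without the very deep barcodes. Progenitor RNA was thus concentrated in the low Gap43 bin. When maturing ganglion cells with 10 or more Ccnd1 UMIs were left out as well, 205 genes were higher and 114 lower of 6922, with 3 of 32 cytoskeleton and 4 of 18 channel genes higher. The part of progenitor RNA in the low bin beyond this was not tested.

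**Figure D3:**
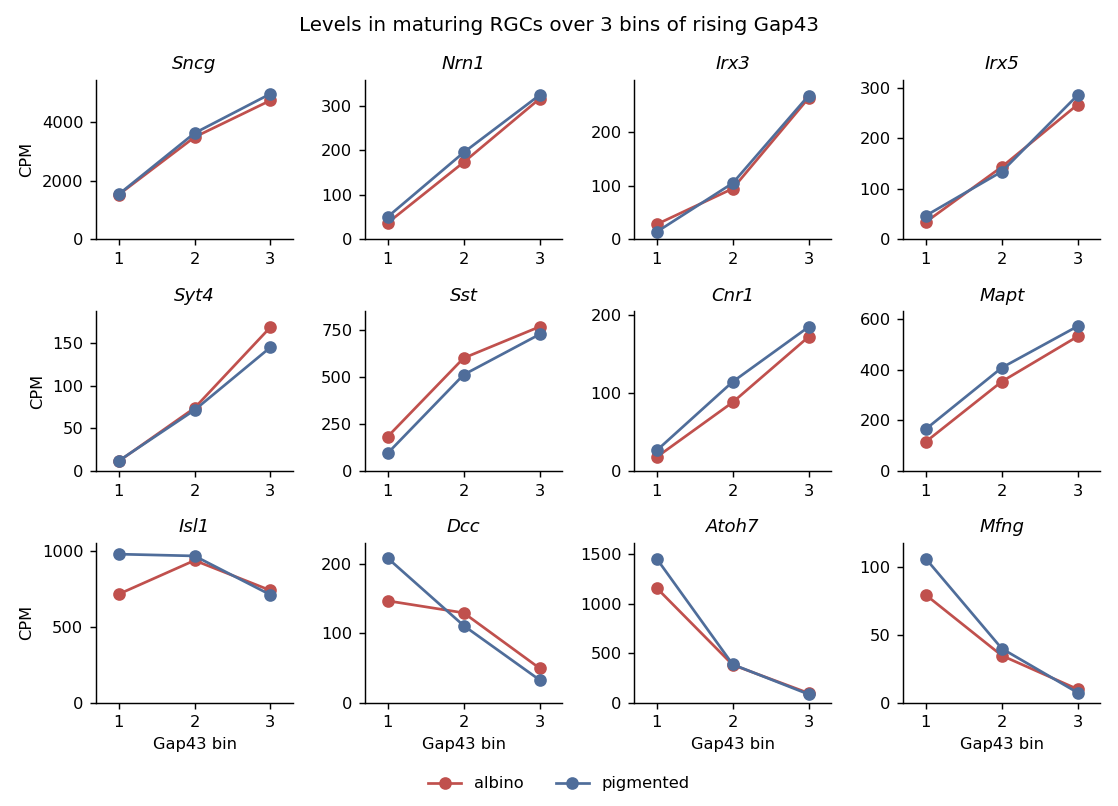
Levels of 12 genes in CPM, on linear axes from 0, over 3 equal bins of maturing retinal ganglion cells ranked by Gap43 per UMI within each library, very deep barcodes included; each point is 1 bin of 1 library and lines join the bins of a library. Some genes were picked after their values were seen, and Sncg was used in the selection. Syt4, Nrn1, Irx3 and Irx5 climb over the bins in both libraries, and Atoh7 and Mfng decline. Isl1 peaks in the middle albino bin and is lowest in the highest pigmented bin.

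For Atoh7 and Irx3, ranks of thinned UMIs across cells went the same way as the bins. This is a description over 506 albino and 352 pigmented cells that share library and depth. Spearman's rho of Atoh7 with Gap43 was −0.68 in albino and −0.72 in pigmented cells. Gap43 with Irx3 gave 0.56 and 0.58, and Irx3 with Irx5 gave 0.62 and 0.70. The following relations were chosen after their values were seen. Irx3 went with Gal (0.50 and 0.55) and with Ret (0.51 and 0.56), and Irx5 with Gal (0.41 and 0.47). Isl1 went with Dcc (0.54 and 0.50) and with Igfbpl1, the gene of an insulin-like growth factor binding protein-like protein of young ganglion cells (0.51 and 0.56), while Crabp1 ran against Isl1 (−0.43 and −0.42) and against Igfbpl1 (−0.51 and −0.57). Gal ran against Barhl2, a homeobox factor of amacrine and ganglion cells (−0.43 and −0.41). The highest Isl1 counts were thus found in cells with little Crabp1 in both libraries.

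**Figure D4:**
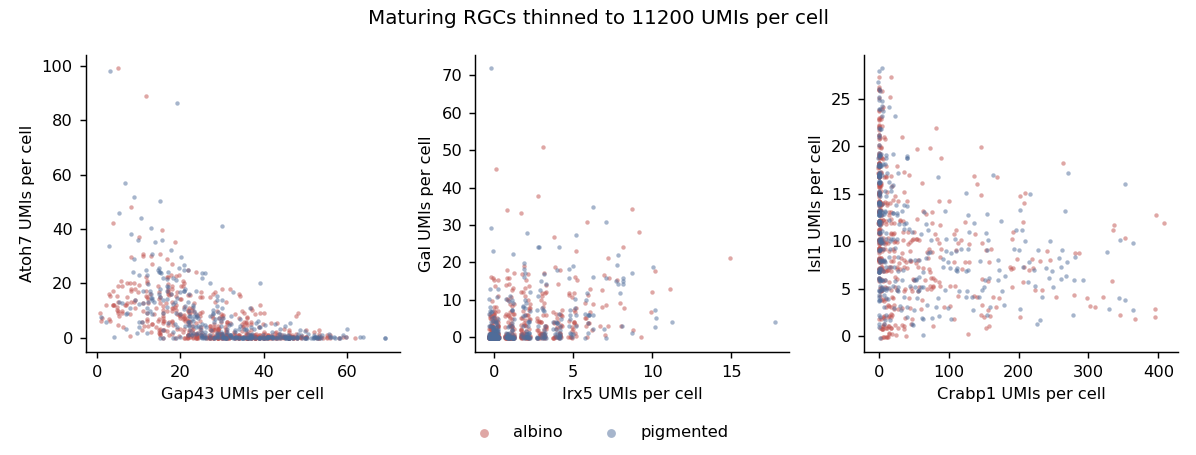
UMIs per cell after thinning to 11200 UMIs, for Gap43 against Atoh7, Irx5 against Gal and Crabp1 against Isl1, with albino and pigmented cells in 2 colours; each point is 1 maturing retinal ganglion cell, displaced at random by up to 0.3 UMI so that equal counts can be seen. Cells high in Atoh7 lie low in Gap43, and the highest Isl1 counts belong to cells with few Crabp1 UMIs, in both libraries.

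Between the albino and the pigmented library, maturing ganglion cells were close in content. Of 10534 genes with at least 50 UMIs, 75 (0.712%) were at least 2-fold higher in albino cells and 42 (0.399%) at least 2-fold lower. Without the very deep barcodes 16 (0.156%) were higher and 84 (0.82%) lower of 10247. The 10 highest were genes of epithelia, among them Krt15, Krt14, Krt5, Cxcl14, Wnt6, Gjb2, Gjb6 and Sfn, and of immune cells, Tyrobp and C1qb. Krt15 had 33.9 CPM in albino and 0 in pigmented cells, 6.58 in albino cells without the very deep barcodes, and Krt14 had 18.3 and 0, 2.79 without. Cxcl14, a chemokine gene of epithelia, had 74.8 and 1.37, a ratio of 54.6 (28.6 to 120), and 8.64 in albino cells without them. The surface ectoderm and lens markers summed to 81.4 in albino and 18.9 in pigmented maturing ganglion cells and to 22.0 in albino cells without the very deep barcodes, with 6 of 7 higher in albino cells, or 4 of 6 without them, and with Krt5, Krt14 and Krt15 at 0 in pigmented cells. In the other cells they summed to 97.9 and 53.7.

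Among the 10 lowest were mitotic genes and genes carried largely by single cells. The immediate early gene Fosb, the histone gene Hist1h1b and Mecom were also among them. Cenpf, a kinetochore gene, had 16.6 in albino and 48.1 in pigmented cells, a ratio of 0.345, or 0.2 without the very deep barcodes, and Hmmr, a spindle gene, had 3.44 and 12.3, ratios of 0.279 and 0.0997. Zfp202 had 1.67 and 8.67, but 1 pigmented cell held 78.9% of its UMIs, and Slc25a20 had 6.98 and 19.2 with 51.6% of the pigmented UMIs in 1 cell. The G2/M list as a whole depended on the very deep barcodes. It summed to 495 in albino and 430 in pigmented cells and to 151 in albino cells without them, its median log2 ratio was 0.21 with 10 of 18 genes higher, and it was −1.51 with 0 of 18 higher without them. Scrublet called 1 albino and 27 pigmented maturing ganglion cells doublets, and without them the median log2 ratio of the G2/M list was 1.22.

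Genes of ganglion cell identity and axon growth hardly differed between the libraries once the very deep barcodes were left out. Of 29 ganglion cell transcription factors 3 were higher in albino cells, with a median log2 ratio of −0.17, against 4673 of 12159 and −0.07 over all genes. Without the very deep barcodes 16 of 28 were higher with a median of 0.05, against 5531 of 11877 and −0.02. Axon cytoskeleton genes had medians of −0.14 and 0.06, with 2 of 35 and 23 of 35 higher, guidance genes −0.09 and 0.06, with 9 of 40 and 25 of 39, and channel genes −0.19 and 0.01, with 5 of 30 and 15 of 29. Sncg and Nefl, which the selection used, are in the cytoskeleton list here. The small lower medians of the lists above were thus not seen once the 23 very deep barcodes were left out. None of the 28 transcription factors with at least 50 UMIs was past 2-fold before they were left out, and 1 was after, Lhx2, a progenitor factor, with a ratio of 0.306.

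Among single genes of these lists, Pou4f1 had 69.4 in albino and 94.0 in pigmented cells, a ratio of 0.738 (0.663 to 0.823), and 0.863 (0.774 to 0.963) without the very deep barcodes. Myt1l had ratios of 0.718 and 0.851, and Pou4f3 of 0.630 and 0.680. Sst had 483 in albino and 438 in pigmented cells, a ratio of 1.10 (1.05 to 1.15), and 1.25 (1.19 to 1.31) without them. Its counts varied widely between cells (Fano factors of 24.8 and 19.8), which these intervals leave out, so no difference in Sst is claimed. Gap43 had a ratio of 0.858, and 0.990 without them, and Nrn1 0.859 and 0.995. Prph, the gene of the intermediate filament peripherin, had 16.9 and 9.12, a ratio of 1.86, and 2.15 (1.60 to 2.94) without them, and 1 albino cell held 56.0% of its UMIs. Such intervals cover counting error only and say nothing of the spread between cells or between litters.

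Glycolysis and hypoxia genes stood higher in albino cells with and without the very deep barcodes. Of 19 glycolysis genes, 18 were higher with a median log2 ratio of 0.22, and 16 with a median of 0.17 without them, against −0.07 and −0.02 over all genes. Ldha, a lactate dehydrogenase gene, had 801 in albino and 593 in pigmented cells, Gapdh 1019 and 826, Eno1, an enolase gene, 355 and 282, and Pgam1, a phosphoglycerate mutase gene, 605 and 511. In Ccnd1 cells Ldha had 848 and 784 and Gapdh 1667 and 1721, and in Pou4f2 cells Ldha had 487 and 454 and Gapdh 777 and 770. These gene levels include the very deep barcodes. Summed over the list, maturing ganglion cells had 5538 in albino and 4719 in pigmented cells, and 4945 in albino cells without the very deep barcodes. The sums were 4290 and 4141 in Pou4f2 cells and 6082 and 5848 in Ccnd1 cells. The gap between the libraries was not tested for a difference between classes. Neurogenic genes had a median of −0.17 and of −0.37 without the very deep barcodes, and progenitor genes of 0.03 and −0.61.

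**Figure D5:**
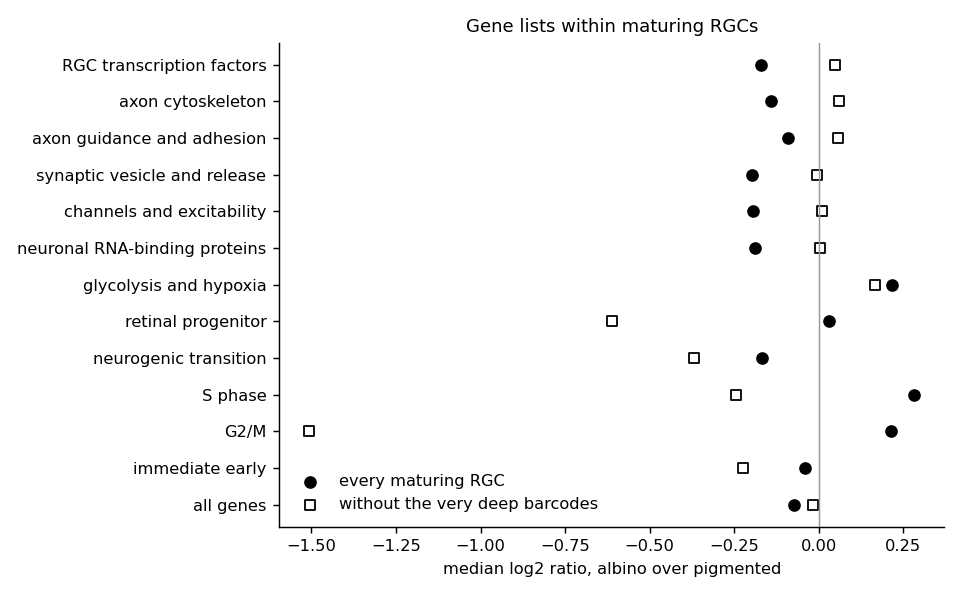
Median log2 ratio of albino over pigmented maturing retinal ganglion cells for each gene list, with all genes for comparison; filled circles use every maturing ganglion cell and open squares leave out the very deep barcodes, and there is 1 library per group. The horizontal axis is log2, with 0 for equal levels. Neuronal lists lie near 0 without the very deep barcodes, glycolysis lies above 0 both ways (0.22 and 0.17), and G2/M moves to −1.51 without them.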

How the data were processed

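The files hold whole-number UMI counts per gene and barcode, deposited by the authors as 1 filtered matrix per library with 32285 genes. Per the submitters' processing notes, reads were processed with Cell Ranger 2.1.1 against mm10, while the matrix header names Cell Ranger 5.0.1, so the version behind the counts is unsettled, and versions of this tool differ in which barcodes they keep. The counts were used as deposited. Of 3676 albino barcodes, 110 had under 500 genes and 136 over 10% mitochondrial UMIs, against 134 and 188 of 6089 pigmented barcodes, which left 3512 and 5883.

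UMIs were summed over the cells of a class and divided by the class total, scaled to 1000000 (CPM, computed here). A class share has an exact Clopper-Pearson interval, and a ratio has a conditional exact interval at 95%. Genes entered with at least 50 UMIs, list genes with at least 20, with 1 UMI added per library for list medians, and a ratio of at least 2 or at most 0.5 was called. Sncg and Nefl were left out of the counts against Pou4f2 cells and against other cells. Pou4f2 was also left out of the former, and Ptf1a, Col3a1 and Col1a2 out of the latter. No selecting gene was left out of the counts between libraries or over the Gap43 bins. The 38 symbols shared by several gene IDs were left out of named results. Python 3.11.15, NumPy 2.4.6, SciPy 1.17.1, pandas 2.3.3, Scanpy 1.11.5 and matplotlib 3.10.9 were used. Coordinates are on GRCm38 (mm10), and promoters and motif counts come from RefSeq.

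Named genes were, in each list, the 8 with the highest level, those past 2-fold between libraries and those whose interval excludes 1. Outside the lists they were the 15 highest and 10 lowest ratios over Pou4f2 cells, the 15 highest over other cells and the 10 highest and lowest between libraries, ranked by the interval bound nearest to 1. The 10 highest Fano factors at a mean of at least 0.2 UMI were added, and mitochondrial, ribosomal protein, haemoglobin, sex-linked marker and gene-model names were left out of these rankings. Not all of these are printed, and list genes named beyond them were chosen after their values were seen. The members and the lists were chosen with earlier results of these data known.

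Some genes are not reported here. No doublet was removed in the reported values. Scrublet, tried as an alternative, called 4 albino barcodes (0.109%), so it hardly worked there, and 168 pigmented barcodes (2.76%). On simulated libraries of 10515 genes, the comparison of albino with pigmented cells called 100% of genes changed 4-fold or 2.5-fold upward. It called 93.2% of genes at 0.4-fold and 0.0484% of unchanged genes, and the intervals held the true value for 95.6% of unchanged genes. The simulated counts varied by counting error alone, which is the error the intervals cover, so these rates follow largely from the design. Spread between cells and between litters was not simulated. The rates therefore do not show how often calls between the 2 real libraries are right. Alternatives changed the cell filters, the Sncg and Nefl limits (raw UMIs or rates), doublet removal, the sex of the cells, cell weighting, the low-count minimum, scaling and thinning.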

Additional observations from a re-analysis of the deposited data

Results flagged for a closer look

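There were 6 genes past 2-fold in opposite directions in the 2 libraries when maturing ganglion cells were set against the other cells of the same library. The difference between the libraries was not tested, since each condition has 1 library. Wnt6, a Wnt ligand gene, had a ratio of 4.40 in the albino library (12.6 CPM against 2.86) and 0 UMIs in pigmented maturing ganglion cells, against 0.841 in the other pigmented cells. Without the very deep barcodes the albino ratio was 2.42. Wnt4, another Wnt ligand gene, had 2.11 in the albino library and 0.186 in the pigmented library, and 0.672 in the albino library without the very deep barcodes.

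The epithelial genes Krt15, Krt14 and Cxcl14 had albino ratios of 3.55, 2.96 and 2.44. Krt15 and Krt14 had 0 UMIs in pigmented maturing ganglion cells and Cxcl14 a ratio of 0.0576. When the very deep barcodes were left out the albino ratios were 2.69, 1.04 and 0.637. Zfp202, a zinc-finger gene, had a ratio of 0.417 in the albino library and 2.72 in the pigmented library, where 1 cell held 78.9% of its UMIs in maturing ganglion cells.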

How the results depend on the processing

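The albino over pigmented ratio of shares lay between 2.21 and 2.59 under the alternatives that kept its denominator and was 1.38 against Pou4f2 cells alone. Counts of genes past 2-fold against Pou4f2 cells lay between 357 and 533 (higher) and 184 and 329 (lower), and against other cells between 1170 and 1298 and between 2434 and 2564. The glycolysis median stayed between 0.17 and 0.30. The direct comparison of the libraries depended on the processing. Genes higher in albino cells, 75 as reported, numbered 227 with Scrublet calls removed, 260 in cells with Xist and no Y-linked UMI, 33 at a minimum of 100 UMIs, 215 at a minimum of 20, 16 without the very deep barcodes and 25 when cells with 10 or more Ccnd1 UMIs were left out as well. Genes lower, 42 as reported, numbered 16 and 127 at those minimums and 84 without the very deep barcodes. Turned round were Hist1h1b (1.35, Scrublet) and Cenpf (1.73), Cenpe (1.59) and Slc25a20 (1.31), all in Xist cells. The causes of these shifts were not tested.

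List medians (log2, albino over pigmented) moved as follows. With Scrublet calls removed, progenitor genes had 1.11, neurogenic 0.15, S phase 0.73 and G2/M 1.22. In Xist cells subtype genes had 0.0016, progenitor 0.62, neurogenic 0.028, S phase 0.59 and G2/M 1.69. Without the very deep barcodes transcription factors had 0.049, cytoskeleton 0.0596, channels 0.0107, RNA-binding proteins 0.0053, progenitor −0.61, S phase −0.25 and G2/M −1.51. Also without cells of 10 or more Ccnd1 UMIs, transcription factors had 0.0029, subtype genes 0.11, S phase −0.042 and G2/M −0.82. With cells weighted equally G2/M had −0.39. So no direction can be given for cell cycle or progenitor genes.

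Of the 10 genes with the highest Fano factor, 6 were still among the 10 without thinning, 9 without Scrublet calls and 9 without the very deep barcodes. Genes higher and lower in the high Gap43 bin numbered 205 and 114 without the very deep barcodes and Ccnd1-rich cells. Of single-gene values under the alternatives, 708 stayed within the counting interval, 103 moved outside it and 4 reversed. Leaving out the very deep barcodes and Ccnd1-rich cells was chosen after seeing the data. No paired analysis was possible because each group has 1 library. Genes with few UMIs limit all ratios, as the wide intervals show.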

Other observations

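A few genes had their UMIs concentrated in single maturing ganglion cells. Tmem245 had a Fano factor of 45.5 in albino and 31.7 in pigmented cells, with no UMI in 88.1% and 84.4% of cells and up to 92 and 68 UMIs in 1 cell, after thinning to 11200 UMIs. Nip7 reached 85 and 61 UMIs in 1 cell and Parp1 65 and 60. Malat1, a nuclear long noncoding RNA, had Fano factors of 80.9 and 74.5, and Mdk, the gene of the growth factor midkine, 16.9 and 13.1.

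Dqx1, a helicase-like gene, was among the highest albino over pigmented ratios without the very deep barcodes, with 40.0 CPM in albino and 11.9 in pigmented maturing ganglion cells over every cell. Its ratio was 3.37, and 3.79 without the very deep barcodes, and 1 albino cell held 37.0% of its UMIs. Slc2a3, a glucose transporter gene, had 10.0 and 2.74, and 1 albino cell held 68.5% of its UMIs.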
